A study of Rattus norvegicus with 12 samples.

Results

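Gene expression in the medial prefrontal cortex was compared between aged Wistar rats that performed an attention task and aged rats that did not. All of these rats were 22 months old. The 3 performing samples came from rats trained in an operant task and tested in it for attention, and the 3 nonperforming samples came from rats that spent time in the same context without ever engaging in the task. These were 6 of the 12 samples of the series, and the other 6 came from 3-month rats split in the same way, 3 performing and 3 nonperforming. RNA was purified on RNeasy columns, and stranded TruSeq mRNA libraries were made from 1000 ng of it. Aged nonperforming libraries are called AN1 to AN3, aged performing libraries AP1 to AP3, and the young ones YN1 to YN3 and YP1 to YP3. Of 15939 genes in the deposited table, 13496 reached 10 in 3 or more of the 12 libraries and were compared.

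The medial prefrontal cortex holds excitatory projection neurons in layers, local inhibitory interneurons and glia, and it is needed for sustained attention in rodents. Acetylcholine from the basal forebrain, noradrenaline from the locus coeruleus and dopamine from the midbrain tune its activity during attention. Neuronal activity switches on immediate early genes within minutes to hours, so their transcripts depend on what an animal did shortly before its brain was taken.

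The aged libraries held between 22189094 reads in AP1 and 26726780 reads in AN3, and the deepest library of the series held 42205582. Transcripts that mark cells outside the cortical sheet were unevenly spread over the 6 aged libraries, and these are given before the comparison because each falls on one side of it. Markers of the olfactory bulb, which lies close to the frontal cortex, were high in AP1 and AP3. The 14 tested markers summed to normalized counts of 4788, 4712 and 4975 in AN1 to AN3, and to 16518, 6768 and 23616 in AP1 to AP3. Cdhr1, a cadherin of the bulb's output neurons, was at 362, 373 and 493 in the nonperforming libraries and at 5231, 1866 and 8405 in the performing ones. Th, which makes the precursor of dopamine and marks a class of bulb interneuron, was at 73.9, 58.2 and 47.4 against 422, 138 and 883. AP2 held the fewest bulb transcripts of the performing libraries, yet its Cdhr1 value was still above every nonperforming one. Tbx21, a transcription factor of bulb output neurons, was the single tested bulb marker at 0 in any aged library, and that library was AN3. Genes of the meninges and of fibroblasts were also highest in AP3, then AP1, then AP2, with 16 tested markers summing to 3741, 8422 and 7607 against 31355, 13587 and 51220.

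Blood transcripts lay on the other side. The sum of 10 red cell genes was 56414 in AN3, against 18705 and 14726 in AN1 and AN2 and 10112 to 12009 in the performing libraries. Neutrophil genes were highest in AN1, where the 7 tested members summed to 3863, compared with 346 in AN2, 888 in AN3 and 316 to 455 in the performing libraries. AN3 also had the highest sum of 15 markers of striatal projection neurons, 15130, where the other aged libraries lay between 7906 and 11195. In AP2 the genes of complement and antigen presentation summed to 127387, and the other 5 aged libraries lay between 20414 and 40838. Slc17a7, the vesicular glutamate transporter of cortical excitatory neurons, was high in every aged library, between 21896 and 42470. What part this other RNA had in the results below was not tested beyond the values given with each. In bulk tissue, fewer cells of a type and less RNA per cell cannot be told apart.

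**Figure D1:**
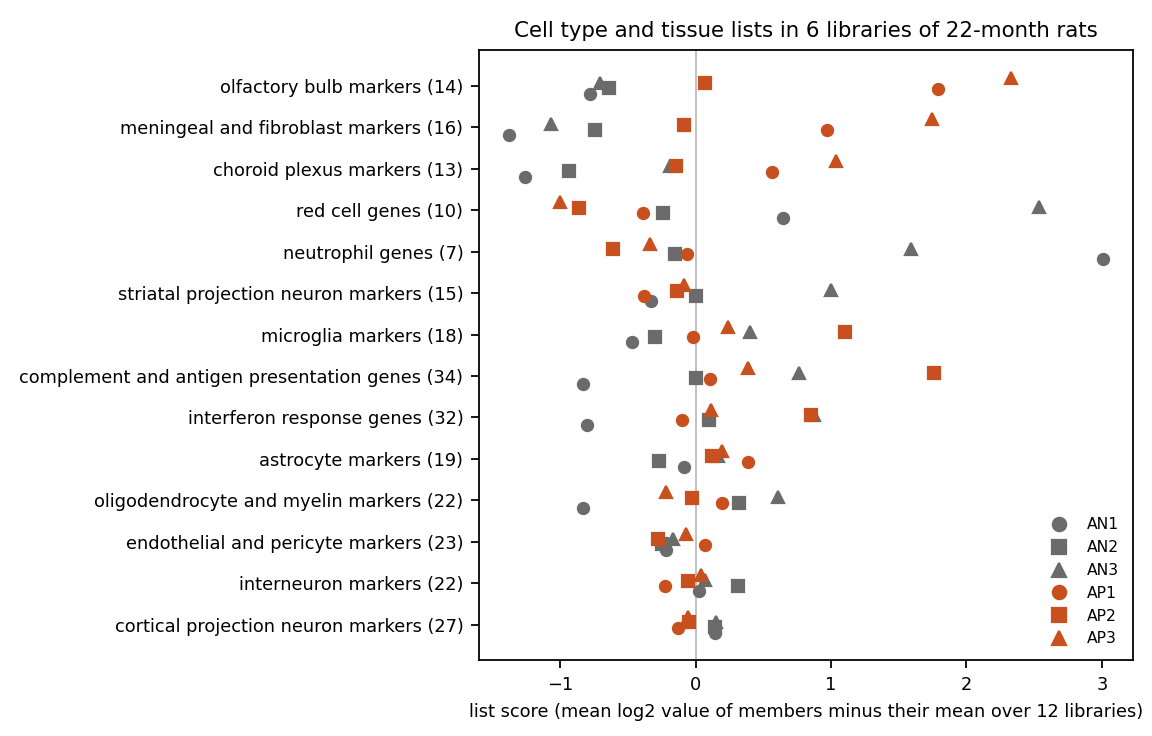
Score of each cell type and tissue list in the 6 aged libraries, on the x axis, where a score is the mean log2 value of the tested members minus their mean over the 12 libraries, with list sizes in parentheses. Bulb markers stand out in AP1 (1.79) and AP3 (2.33), red cell genes in AN3 (2.54), neutrophil genes in AN1 (3.01), and complement genes in AP2 (1.76).

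No gene reached an adjusted p under 0.05 between performing and nonperforming aged rats in the limma fit, 0.0% of the 13496 tested. The smallest adjusted p was 0.138, and the next was 0.50. At an unadjusted p under 0.05, 726 genes (5.38%) were higher and 551 (4.08%) were lower in performing rats. The 3 performing values were all above the 3 nonperforming values for 1442 genes (10.7%) and all below them for 1453 (10.8%). Over all genes the median difference was -0.00 on the log2 scale, with 6678 genes higher and 6818 lower. All differences below are of log2(normalized count + 1), performing minus nonperforming.

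Other tests on the reads behind the values gave other counts. The edgeR quasi-likelihood test passed 0 genes, with 1363 at an unadjusted p under 0.05. DESeq2 passed 76 genes as higher (0.563%) and 13 as lower (0.0963%). Of these 89 genes, 18 belonged to the lists of bulb, meningeal, choroid plexus, endothelial and pericyte, red cell or neutrophil genes. Higher were 5 of 14 bulb, 6 of 16 meningeal, 1 of 13 choroid plexus and 2 of 23 endothelial and pericyte genes. Lower were 1 of 10 red cell and 3 of 7 neutrophil genes. AP2 was the lowest performing library in 72 of the 76 higher genes. The young performing library YP2, which also carried bulb transcripts, was above all young nonperforming libraries in 75 of them. Bulb markers summed to 16990.5 in YP2, against 4431 and 6440 in YP1 and YP3 and 4016 to 5069 in YN1 to YN3. The shares of all tested genes with these orders are not given, and what part bulb RNA had was not tested. With the bulb score of each library as a covariate, no gene passed in limma. In that fit 126 genes (0.934%) had an unadjusted p under 0.05, of which 101 were higher and 25 lower. Relative to the mean of the 12 libraries, the score was -0.78, -0.64 and -0.70 in AN1 to AN3 and 1.79, 0.07 and 2.33 in AP1 to AP3. Because the score runs with the contrast, differences with the covariate, here and below, cannot separate bulb RNA from performance. The labels do not say that the samples of a group are separate animals. The p-values thus measure a spread between samples that may be partly technical. In limma that spread was pooled over all 12 libraries, young ones included. At an unadjusted limma p under 0.05, 1227 genes were higher and 1187 lower without YN3, a setting chosen after seeing the data. Choroid plexus markers summed to 40605 in YN3 and to 1772 to 3290 in every other library. YN3 also enters the young values and the differences between ages given below, and its part in them was not tested. With only the 6 aged libraries 1190 were higher and 1116 lower, and 0 genes passed in either fit.

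Scin had the smallest p of all genes. It encodes scinderin, which severs actin filaments when calcium rises. Its values were 1.15, 0 and 1.98 in AN1 to AN3 and 71.9, 266 and 149 in AP1 to AP3, so that the groups were far apart. The nonperforming libraries held 3 reads of it in all and the performing libraries 431, a ratio of 160 (performing to nonperforming) with a 95% interval of 54.2 to 777 that covers counting error only. The log2 difference was 6.27 ± 0.84 (SE, n = 3 per group), with a limma adjusted p of 0.138, an edgeR adjusted p of 0.438 and a DESeq2 adjusted p of 2.45e-05. Scin was highest in AP2, the performing library with the lowest bulb score, and its difference with the bulb score as a covariate was 5.21. Leaving out any 1 aged library gave 5.82 to 6.75. In the 3-month rats Scin was at 0.962, 0 and 0 in nonperforming and at 3.94, 44.9 and 5.09 in performing libraries, again without overlap. The highest young value was that of YP2, which carried bulb transcripts, and AP2 was the library with the most complement and antigen presentation transcripts. What part other RNA had in the Scin values was not tested.

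The other 11 genes of smallest p among those higher in performing rats were Ms4a15, Gcnt1, Cyp39a1, Ly6g6e, Slc16a12, S100a5, Shisa3, LOC100909725, Tax1bp3, Lix1l and St6galnac2. Ms4a15, a membrane protein of the MS4A family, was at 3.46, 0 and 0.988 against 322, 89.0 and 457. Its reads numbered 4 in the nonperforming and 788 in the performing libraries, a ratio of 219 with a 95% interval for counting error of 85.1 to 805. S100a5, a calcium-binding protein known from olfactory neurons, was at 4.62, 5.73 and 0 against 393, 29.7 and 1319. Both genes were lowest in AP2 among the performing libraries, as were Cyp39a1, an enzyme that hydroxylates oxysterols, and Shisa3, a regulator of Wnt signalling. Cyp39a1 was at 18.5, 18.1 and 12.8 against 153, 73.5 and 389, a difference of 3.25 that was 1.22 with the bulb covariate. Shisa3 was at 20.8, 44.9 and 37.6 against 764, 144 and 892, and its difference of 3.77 was 0.96 with the covariate. Each of these genes was thus several times higher in all performing libraries, with the bulb-poor AP2 closest to the nonperforming ones.

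A few of the higher genes were more even over the performing libraries. Gcnt1, a glycosyltransferase that builds branched O-glycans, was at 91.2, 140 and 114 against 293, 241 and 476, a difference of 1.5 ± 0.31 (0.78 with the bulb covariate). Lix1l was at 1221, 1034 and 1290 against 1898, 1593 and 1758, a difference of 0.57 ± 0.13 (0.42 with the covariate). LOC100909725 was at 56.6, 39.1 and 34.6 against 97.6, 91.3 and 113, a difference of 1.22 ± 0.28 (0.80 with the covariate). For these 3 genes AP2 alone exceeded the mean of the nonperforming libraries by 1.08, 0.44 and 1.09. None passed in limma (adjusted p 0.50 each), and all 12 of the higher genes passed in DESeq2.

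**Figure D2:**
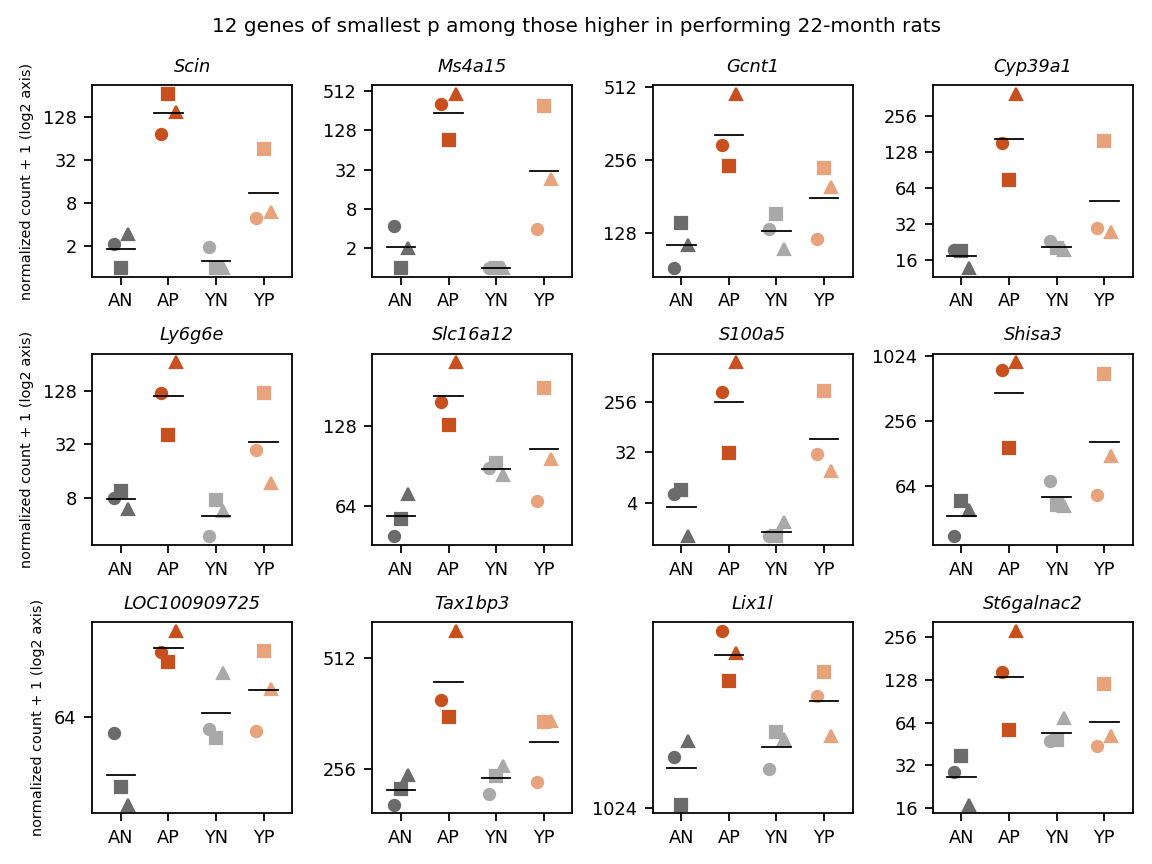
Normalized count + 1 on a log2 axis for the 12 genes of smallest p among those higher in performing aged rats, in aged nonperforming (AN), aged performing (AP), young nonperforming (YN) and young performing (YP) libraries. Circles, squares and triangles are libraries 1, 2 and 3 of a group and lines are means of the log values; in each panel the 3 AP points lie above the 3 AN points, and AP2 (square) is highest for Scin.

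With the bulb score as a covariate, the 5 genes of smallest p in each direction were partly others. Higher were Scin, Slc11a1, Lcp2, Ly86 and Tifab. Slc11a1, a metal transporter of phagocytes, was at 60.0, 72.6 and 80.1 against 86.0, 205 and 75.1. Lcp2, a signalling adaptor of blood and immune cells, was at 185, 154 and 265 against 276, 644 and 248. Ly86, a partner protein of a Toll-like receptor relative, was at 61.2, 66.8 and 92.9 against 89.9, 411 and 92.9. In these and in Tifab the highest value was that of AP2 alone. Lower in that fit were Lcn2, LOC500300, Morn1, Col6a1 and Mmp14, although Mmp14, a matrix metalloproteinase, was higher by 0.62 without the covariate and lower by -0.66 with it. Morn1 was at 275, 355 and 231 against 166, 151 and 132, without overlap, and its difference of -0.92 was -1.15 with the covariate. Lcn2, an iron-trapping protein of neutrophils and reactive astrocytes, overlapped between the groups, with its highest value in AN1 and its lowest in AP2.

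Among genes lower in performing rats, the smallest p belonged to Pfkl, the liver-type phosphofructokinase that commits sugar to glycolysis. Its values were 4317, 3816 and 4125 in AN1 to AN3 and 2527, 2819 and 2658 in AP1 to AP3, means of 4086 ± 253 and 2668 ± 146 (SD, n = 3). The groups did not overlap, and the difference was -0.61 ± 0.14 (SE), with a limma adjusted p of 0.50 and a DESeq2 adjusted p of 0.0142. AP2 alone lay -0.53 from the nonperforming mean, the difference with the bulb covariate was -0.37, and leaving out any 1 aged library gave -0.66 to -0.57. Pfkp, the platelet-type form of the same enzyme, was at 10619, 10560 and 9209 against 7016, 7805 and 6597, a difference of -0.51 ± 0.13. Pgm2l1, which makes a sugar bisphosphate cofactor in brain, was at 5566, 5847 and 4729 against 2600, 3974 and 2276. These 3 enzymes of sugar metabolism were each lower in every performing library than in any nonperforming one.

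Several of the other genes of smallest p encode secreted or synaptic proteins. Crhbp, which binds corticotropin-releasing hormone outside cells and is made by cortical interneurons, was at 344, 529 and 429 against 184, 249 and 216, a difference of -0.99 ± 0.24. In the 3-month rats Crhbp overlapped between the groups, at 333, 458 and 312 against 394, 252 and 378. Nxph3, a secreted ligand of neurexins, was at 1450, 1722 and 1429 against 665, 1077 and 528. Bhlhe40, a transcription factor tied to the circadian clock and to neuronal activity, was at 3784, 3331 and 3168 against 1989, 2546 and 1997. The remaining genes described were Fads3 (a fatty acid desaturase), Slc35f3, Mybpc1, Sema4f (a semaphorin) and Galnt16 (a glycosyltransferase), each lower without overlap. For Nxph3 and Bhlhe40 AP2 was the performing library nearest to the nonperforming ones, and their differences of -1.08 and -0.66 were -0.34 and -0.23 with the bulb covariate. Over all 551 lower genes with an unadjusted p under 0.05, AP2 was the highest performing library in 479. The share of all tested genes with that order is not given.

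**Figure D3:**
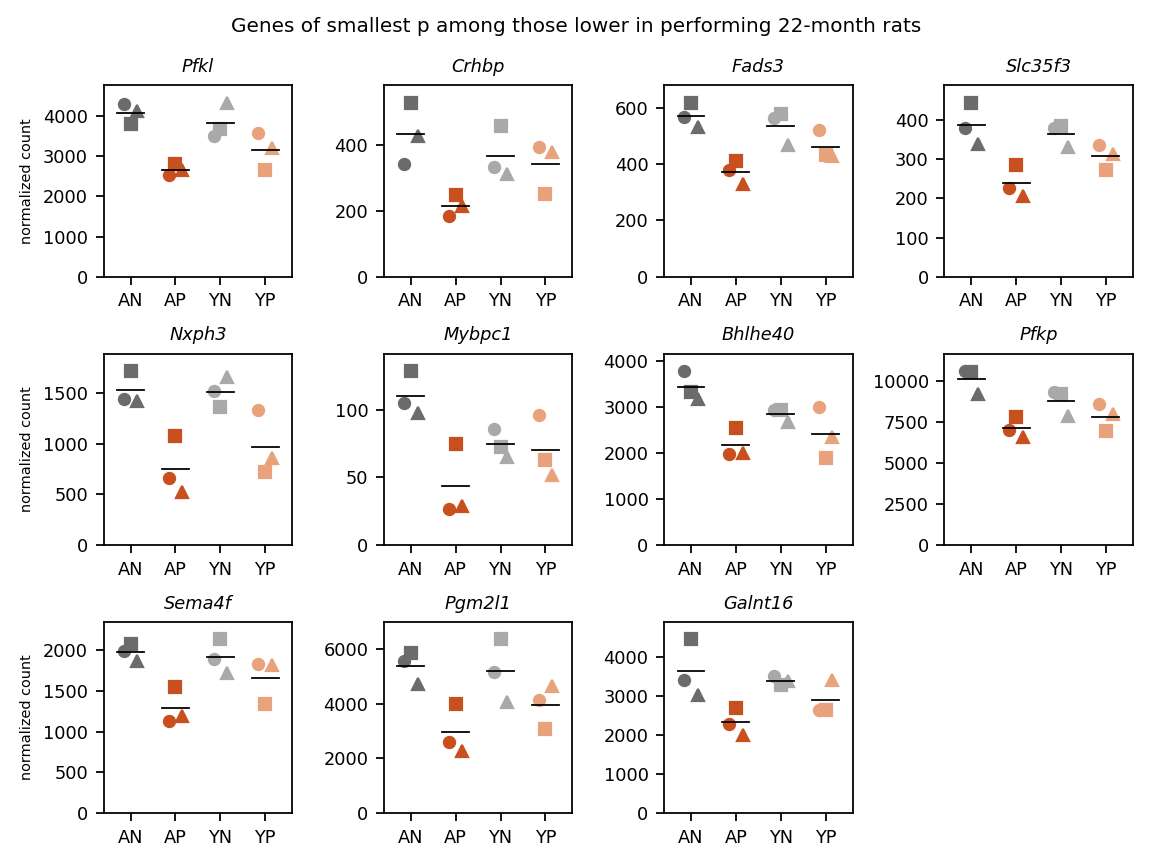
Normalized count on a linear axis from 0 for the genes named in the text from the 12 of smallest p among those lower in performing aged rats, with groups and symbols as in the plot of higher genes and lines at group means. In each panel the 3 AP points lie below the 3 AN points, as for Pfkl (2527 to 2819 against 3816 to 4317).

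Receptors for the transmitters that tune attention were mostly lower in performing rats, and none passed. Of 15 tested genes for acetylcholine receptors and enzymes, 2 were higher and 13 lower, with a median of -0.48 beside -0.00 over all genes. Without overlap were 5 of them, all lower, beside 10.8% of all genes. Chrm3, a muscarinic receptor that acts through phospholipase C, was at 1469, 1893 and 1191 against 755, 1223 and 813. Chrna4, a subunit of the high-affinity nicotinic receptor, was at 1423, 1711 and 1431 against 892, 1384 and 785. Chrna5, the accessory nicotinic subunit of deep-layer cortical neurons, was at 255, 285 and 264 against 110, 197 and 67.2. In these 3 genes AP2 was the performing library nearest to the nonperforming ones, and for Chrm3 it lay within their range. Chrm1, the main muscarinic receptor of cortex, overlapped, at 2372, 2466 and 1015 against 1307, 1025 and 1428. Chat, the enzyme that makes acetylcholine, was low throughout, at 23.1, 25.8 and 26.7 against 5.14, 13.1 and 5.93. The median of the list was -0.21 with the bulb covariate and -0.25 for AP2 alone.

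Of 22 genes for dopamine, noradrenaline and serotonin signalling, 8 were higher and 14 lower (median -0.30, and -0.16 without AN3, -0.20 without AP1 and -0.17 without AP3). For AP2 alone the median was -0.08, and against AN1 and AN2 only it was 0.00. Adrb1, the beta adrenergic receptor most common in cortex, was at 412, 452 and 340 against 216, 321 and 211, a difference of -0.70 ± 0.19. Drd1, the main dopamine receptor of both prefrontal cortex and striatum, was at 211, 228 and 449 against 74.5, 145 and 99.8. Its highest value was in AN3, the library with the most striatal transcripts, and its difference was -1.43 with AN3 and -1.09 without it. Adra2a, the adrenergic receptor through which noradrenaline supports working memory, was at 254, 318 and 359 against 288, 262 and 294, overlapping. Htr1f and Htr5b, both serotonin receptors, and Maob, which breaks down monoamines, were higher without overlap. Htr5b was at 3.46, 1.91 and 2.97 against 36.0, 7.12 and 72.1, and its difference of 2.91 was -0.26 with the bulb covariate.

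Glutamate receptors were mostly lower as well, and none passed. Of 16 ionotropic receptor subunits 15 were lower, 5 of them without overlap, beside 10.8% of all genes. The median was -0.29, and it was -0.15 with the bulb covariate and -0.14 for AP2 alone. Grin1, the subunit that every NMDA receptor needs, was at 11500, 13946 and 10315 against 8570, 8684 and 8283, a difference of -0.47 ± 0.15. Grik4, a high-affinity kainate receptor subunit, was at 762, 992 and 879 against 665, 614 and 594, and its difference of -0.48 was -0.47 with the bulb covariate and -0.51 for AP2 alone. In these 2 genes, unlike the list's median, the difference for AP2 alone was close to that of all performing libraries. Gria1 and Grin2b, subunits of AMPA and NMDA receptors, overlapped between groups, with differences of -0.29 and -0.19. Of 6 metabotropic receptors 5 were lower (median -0.26, and -0.16 with the bulb covariate, -0.11 for AP2 alone and -0.40 without AP2) and 0 were without overlap. In the list of GABA synthesis, transport and receptors 7 genes were higher and 13 lower (median -0.12). Gabbr2, a subunit of the metabotropic GABA receptor, was at 10994, 13001 and 9597 against 6274, 8995 and 5124, lower without overlap by -0.75.

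Genes of the transmitter release machinery were mostly lower, and none passed. Of 29 synaptic vesicle release genes 3 were higher and 26 lower, with a median of -0.35. An unadjusted limma p under 0.05 was found for 8, all lower, beside 4.08% of all genes. Syp, the vesicle protein synaptophysin, was at 15010, 21031 and 13686 against 9727, 13232 and 10675. Slc17a7, which loads glutamate into vesicles, was at 38558, 42470 and 30347 against 26661, 29604 and 21896; both were singled out after their values were seen. Sv2a, a vesicle glycoprotein, was at 10163, 11378 and 10069 against 7569, 8670 and 8592. None of these 3 genes overlapped, although for Syp and Slc17a7 the nearest values of the groups were close. Syt5, Nsf and Bsn, a calcium sensor, the ATPase that takes release complexes apart and a scaffold of the release site, were lower by -0.68, -0.53 and -0.35 without overlap. The median of the list was -0.15 with the bulb covariate, -0.19 for AP2 alone and -0.26 to -0.46 with any 1 aged library left out. Postsynaptic scaffold and plasticity genes lay nearer to all genes, with 11 of 27 higher, 16 lower and a median of -0.09 that was 0.04 under quantile normalization and -0.02 without AP2. Homer2, a scaffold of metabotropic glutamate receptors, was higher at 397, 217 and 394 against 554, 453 and 676, and Dlg3, a scaffold of NMDA receptors, was lower by -0.35, both without overlap. In the whole list 1 gene was higher and 6 were lower without overlap, beside 10.7% and 10.8% of all genes.

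Ion channel genes were mostly lower too, with none passing in limma and Calb2, a calcium buffer, passing in DESeq2 as higher. Of 31 voltage-gated potassium and sodium channel genes 23 were lower (median -0.33, and -0.20 without AP3), and of 30 genes for calcium channels, stores and buffers 20 were lower (median -0.29). Scn2a, a sodium channel of excitatory neurons, was at 8455, 8926 and 6561 against 4316, 6397 and 4096. Cacna2d3, an auxiliary calcium channel subunit, was at 2332, 3450 and 2263 against 1228, 1987 and 960. Kcnc2, a potassium channel of fast-spiking neurons, was at 2178, 2948 and 1931 against 1139, 2087 and 1101, so AP2 lay inside the nonperforming range. With the bulb covariate the medians of the lists were -0.14 and -0.21, and for AP2 alone they were -0.07 and -0.15. Hcn4, a pacemaker channel, went the other way at 173, 181 and 154 against 316, 209 and 420, and its difference of 0.83 was 0.08 with the covariate.

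**Figure D4:**
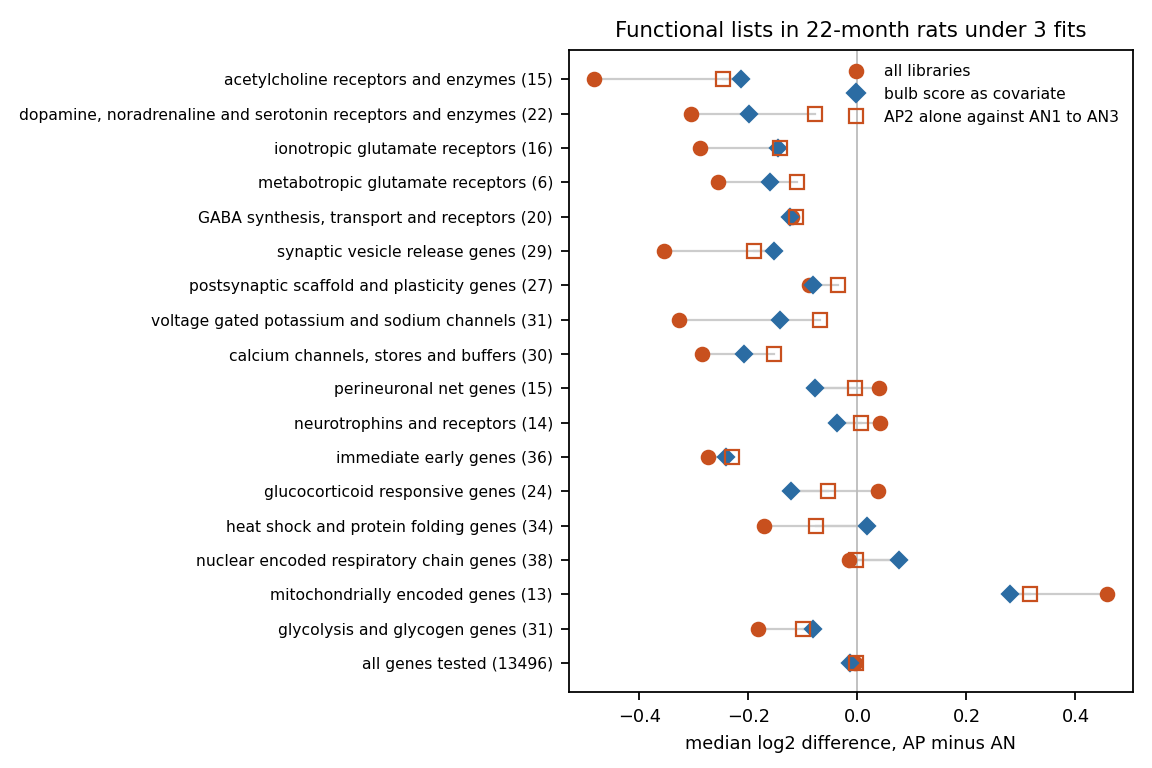
Median log2 difference of the tested members, performing (AP) minus nonperforming (AN), for 17 functional lists and for all genes, with the number of genes in parentheses. Circles are the fit of all libraries, diamonds the fit with the bulb score as covariate, and open squares AP2 alone against the 3 AN libraries; for acetylcholine genes the values are -0.48, -0.21 and -0.25, and for all genes they lie at -0.01 to 0.00.

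Activity-dependent genes were mostly lower in the performing aged rats. Of 36 tested immediate early genes 9 were higher and 27 lower, with a median of -0.27. Without overlap were 3 of the 36, all lower, a smaller share than the 10.8% of all genes. The 6 with an unadjusted p under 0.05 were all lower too, beside 4.08% of all genes, and none passed. Fos, the classic marker of recent activity, was at 927, 1370 and 299 in nonperforming and 569, 668 and 673 in performing libraries. Arc, which trims AMPA receptors at active synapses, was at 8098, 11378 and 4225 against 6947, 7542 and 4701. Npas4, which is switched on by calcium entry in neurons, was at 799, 1194 and 172 against 390, 459 and 327. In all 3 genes the performing libraries lay between AN3 below and AN1 and AN2 above. Bdnf, a growth factor made on activity, was at 659, 596 and 353 against 277, 470 and 287, a difference of -0.63 that was -0.03 with the bulb covariate. Egr1, a zinc finger factor induced by activity, was at 7349, 8448 and 3669 against 4433, 4831 and 5401, overlapping.

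Other lower members act downstream of activity in different ways. Dusp1, a phosphatase that switches off MAP kinases, was at 2159, 3399 and 1309 against 1106, 1433 and 892, a difference of -0.92. Zfp36, which destabilises inflammatory messenger RNAs, was at 338, 287 and 261 against 243, 228 and 191, lower without overlap by -0.42. Vgf, a secreted neuropeptide precursor, was at 873, 1254 and 1037 against 704, 668 and 549, also without overlap. The median of the list depended on which nonperforming library was left out, at -0.51 without AN3, -0.20 without AN1 and -0.08 without AN2. With the bulb covariate it was -0.24, and for AP2 alone -0.23. In the 3-month rats the same list had a median of 0.13, with 22 genes higher and 14 lower.

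**Figure D5:**
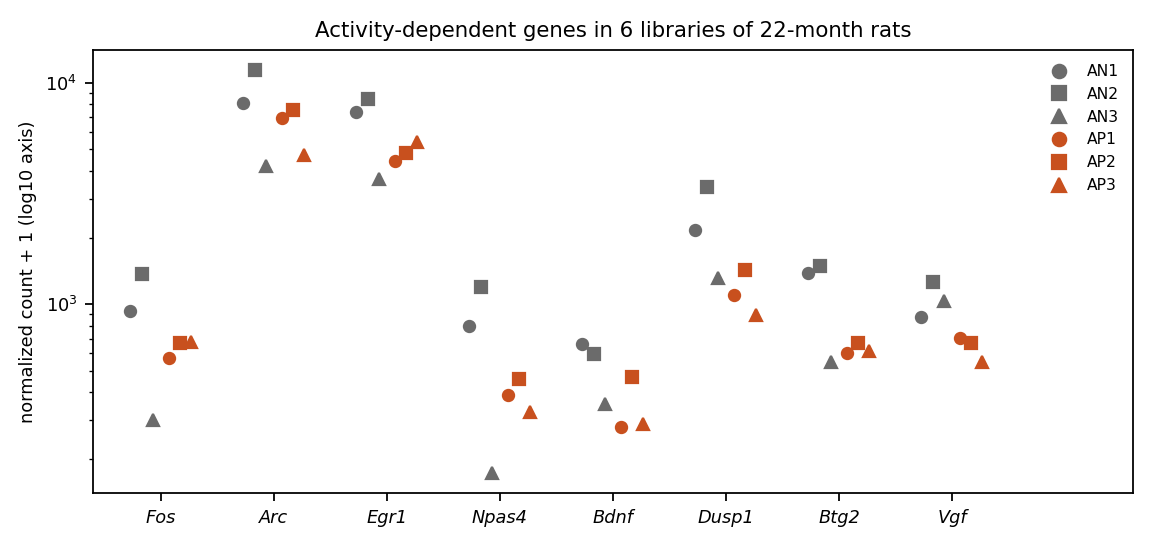
Normalized count + 1 on a log10 axis for 8 activity-dependent genes in the 6 aged libraries, grey for nonperforming and orange for performing. For Fos, Arc and Npas4 the performing points lie between AN3 and the pair AN1 and AN2, and for Vgf all performing points lie below the nonperforming ones.

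The cAMP response element, the site bound by the activity-regulated factor CREB, was looked for in the promoters of the immediate early genes, since these genes share a stimulus. Its full palindrome TGACGTCA, which reads the same on both strands, occurred in the 250 bases before the start of 5 of the 27 immediate early genes that matched a RefSeq promoter (18.5%), and in 490 of 27457 genes with one (1.78%). The 27 genes were all tested here, while the 27457 include genes that were not, so these shares are of unlike sets. The 27 genes had 32 listed starts, and in both sets a gene counted if any of its starts had the element. The 5 sequences around the element are shown because they allow the members with the site to be set beside those without. They are from RefSeq on build GRCr8, read 5′ to 3′ on the strand of the gene with the element in capitals.
Dusp1: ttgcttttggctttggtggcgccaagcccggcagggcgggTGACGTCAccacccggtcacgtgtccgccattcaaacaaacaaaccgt
Vgf: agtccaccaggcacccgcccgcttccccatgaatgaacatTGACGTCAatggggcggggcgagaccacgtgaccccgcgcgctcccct
Btg2: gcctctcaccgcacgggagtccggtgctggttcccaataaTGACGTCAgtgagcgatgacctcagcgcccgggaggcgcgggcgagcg
Jund: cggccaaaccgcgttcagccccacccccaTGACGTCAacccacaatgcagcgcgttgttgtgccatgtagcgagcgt
Maff: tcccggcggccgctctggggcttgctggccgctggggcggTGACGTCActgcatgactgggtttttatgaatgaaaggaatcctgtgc
They lie at chr10:17184689-17184776 on the plus strand (Dusp1), chr12:25277063-25277150 on the minus strand (Vgf), chr13:48087844-48087931 on the minus strand (Btg2), chr16:18769945-18770021 on the minus strand (Jund) and chr7:112792696-112792783 on the plus strand (Maff). Of these 5 genes 4 were lower in performing aged rats, with a median of -0.71, which is the value of Vgf. Of the 22 without the element 16 were lower, with a median of -0.32. The 2 sets were not tested against each other, and in Dusp1, Btg2 and Maff the groups overlapped. Btg2, an antiproliferative gene, was at 1384, 1483 and 547 against 602, 665 and 617. Maff, a small leucine zipper factor, was the exception at 82.0, 48.7 and 181 against 148, 42.7 and 356. Jund, an AP-1 subunit, differed by -0.13. The motif and these 5 genes were chosen after the gene values were seen, and a match in a promoter says nothing by itself about binding.

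Transcripts of energy metabolism were examined as mitochondrially and nuclear encoded genes. The share of mitochondrially encoded reads was planned as a sign of RNA quality or of cell composition. What part either had was not tested. All 13 mitochondrially encoded genes were higher in performing rats, with a median of 0.46. The median was 0.26 without AN2, 0.28 without AP1 and 0.00 under quantile normalization. Without overlap were 5 of the 13, beside 10.7% of all genes. None passed. In the 3-month rats the median was 0.47, with YN3 far below the other young libraries. Mitochondrial transcripts made up 18.8%, 19.5% and 10.8% of the reads in YN1 to YN3. In YP1 to YP3 they made up 20.2%, 23.5% and 19.4%, so the young groups overlapped. COX2, a catalytic subunit of cytochrome oxidase, was at 415006, 294388 and 437172 against 712786, 486815 and 470278. Mitochondrial transcripts made up 18.5%, 13.9% and 20.1% of the reads in AN1 to AN3 and 27.6%, 20.7% and 21.7% in AP1 to AP3. The means were 17.5% ± 3.21 and 23.3% ± 3.73 (SD, n = 3), a difference of 5.84 points, with a two-sided exact permutation p of 0.1, the smallest that 3 against 3 can give. The shares did not overlap, and AP1 was the highest. The 38 nuclear genes of the respiratory chain lay near all genes, with 17 higher, 21 lower and a median of -0.02 that was 0.01 with TMM scaling. Among 31 genes of glycolysis and glycogen, a list chosen after the data were seen, 20 were lower. Without overlap were 12, all lower, beside 10.8% of all genes. The median was -0.18, and it was -0.08 with the bulb covariate and -0.10 for AP2 alone. Beside Pfkl, Pfkp and Pgm2l1 these included Gapdh, at 15343, 18894 and 14962 against 11933, 13446 and 12079, and Ldha, which interconverts pyruvate and lactate, at 5011, 5578 and 4389 against 2986, 3917 and 3072; both were singled out after their values were seen.

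Stress, plasticity and matrix lists lay close to all genes or changed sign. Of 24 glucocorticoid-responsive genes 13 were higher and 11 lower (median 0.04, and -0.04 without AN1). Sgk1, a kinase induced by glucocorticoids, was at 2378, 2135 and 6465 against 2055, 2755 and 1978, with 1 high value in AN3. Of 34 heat shock and protein folding genes 28 were lower (median -0.17), but with the bulb covariate the median was 0.02 and without AN2 it was -0.03. Hsph1, a chaperone that exchanges the nucleotide of heat shock proteins, was lower without overlap by -0.58. Perineuronal net genes and neurotrophin genes each had a median of 0.04, and both medians changed sign with single libraries left out. Hapln4, which links the net around inhibitory neurons, was lower without overlap at 5157, 9307 and 5223 against 3792, 5138 and 2930. Acan, the net's main proteoglycan, was at 62.3, 138 and 54.4 against 149, 90.1 and 282. Igf2, a growth factor that is also made by the meninges, was at 157, 218 and 186 against 2426, 703 and 4287, in the same order as the meningeal sums.

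Immune genes were mostly higher in the performing group, and none passed in limma. AP2 was far above the other libraries for complement, antigen presentation and microglia genes. Of 34 complement and antigen presentation genes 31 were higher (median 0.70), and the median was 0.24 without AP2 and 0.29 without AN1. Without overlap were 2 of the 34, a smaller share than the 10.7% of all genes. Cd74, the chain that guides MHC class II molecules, was at 94.7, 953 and 2915 against 818, 38921 and 877. RT1-Da, a class II chain named after its values were seen, was at 15, 253 and 565 against 216, 12668 and 238. Apart from AP2 the performing values of both genes lay within the nonperforming range. B2m, the light chain of MHC class I, was higher without overlap, at 8812, 11342 and 15228 against 17007, 23906 and 15948. Of 18 microglia markers 17 were higher (median 0.46), and without AP2 the median was 0.15. Only 1 of the 18 was without overlap, also a smaller share than the 10.7% of all genes. Aif1, a marker of microglia, was at 459, 526 and 782 against 724, 2362 and 778. Sall1, a transcription factor of microglia that other brain cells also express, was at 1052, 966 and 1707 against 2537, 2223 and 3032, a difference of 1.1 without overlap that passed in DESeq2 (adjusted p 0.0423). Interferon response genes had a median of 0.32 that was -0.14 without AN1, and their sum was highest in AN3 (17049, against 13232 in AP2). The 4 tested T and B cell genes were all higher (median 0.52, and 0.20 without AP2).

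Among other glia, all 19 astrocyte markers were higher, with a median of 0.26, and none passed. Without overlap were 4 of them, beside 10.7% of all genes. Gja1, the main gap junction protein of astrocytes, was at 13093, 10170 and 12014 against 17371, 14290 and 13954. Glul, the enzyme that turns glutamate into glutamine, was at 58057, 55884 and 66664 against 99685, 70107 and 68895. Gfap, the filament protein of reactive astrocytes, overlapped, at 13459, 14737 and 47683 against 22834, 33048 and 36327. The astrocyte median was 0.11 with the bulb covariate and 0.16 for AP2 alone. Oligodendrocyte and myelin markers turned with single nonperforming libraries, with a median of -0.07 in all, -0.48 without AN1, 0.08 without AN2 and 0.23 without AN3. Mbp, a structural protein of myelin, was at 62877, 136651 and 189917 against 159364, 131612 and 118904. Oligodendrocyte precursor markers had a median of 0.09, which was -0.05 without AN1. Of 23 endothelial and pericyte markers 6 were higher and 5 lower without overlap, beside 10.7% and 10.8% of all genes. The higher ones included the contractile genes Acta2, Tagln and Myh11 of vessel walls, and Acta2 was at 142, 143 and 192 against 517, 301 and 586. The endothelial genes Flt1, Esam and Vwf, named after their values were seen, were lower, with Flt1 at 2795, 2026 and 2121 against 2022, 1503 and 1235.

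Neuronal markers were mostly lower. Of 27 cortical projection neuron markers 10 were higher and 17 lower (median -0.38). Without overlap 2 were higher and 10 lower, beside 10.7% and 10.8% of all genes. Tle4, a corepressor of layer VI neurons, was at 1991, 1999 and 1996 against 1484, 1681 and 1429, a difference of -0.39 ± 0.11 that passed in DESeq2 (adjusted p 0.0316). Neurod6, a transcription factor of excitatory neurons, was at 2521, 2364 and 1682 against 1049, 1653 and 801. The median of the list was -0.18 with the bulb covariate, -0.27 for AP2 alone and -0.11 without AN3. Of 22 interneuron markers 14 were lower (median -0.34, and -0.20 without AP1, -0.18 with the bulb covariate and -0.26 for AP2 alone). Sst, the neuropeptide of Martinotti-type interneurons, was at 2624, 3681 and 2340 against 1076, 1944 and 1064, and its difference of -1.11 was -0.18 with the bulb covariate. Pvalb, the calcium buffer of fast-spiking interneurons, overlapped through AP2, at 1778, 3185 and 1913 against 774, 1793 and 850. Calb2, a calcium buffer of cortical and bulb interneurons, went the other way at 222, 307 and 179 against 1767, 511 and 2409, and its difference of 2.49 was 0.37 with the covariate. Striatal markers had a median of -0.64, which was -0.28 without AN3. Of 13 choroid plexus markers 11 were higher, with a median of 0.83 (0.45 without AP3, 1.34 without AP2) and sums of 1772 to 3290 in nonperforming and 2666 to 2756 in performing libraries. Kcnj13, Cldn2 and Folr1 were each at 0 in AN1. Kcnj13, a potassium channel of that tissue, was at 0, 1.91 and 0 against 50.1, 14.2 and 61.3, a ratio of 62.8 with a 95% interval for counting error of 17.0 to 524. Motile cilia genes, a list chosen after the data were seen, had a median of -0.04 that was 0.26 without AN3 and -0.19 without AN2.

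The blood genes that differed most were named by rule. Slc4a1, the anion exchanger of red cells, was at 31.2, 5.73 and 319 against 2.57, 3.56 and 3.95, and Hba1, a globin chain, was at 3618, 1706 and 20132 against 1823, 814 and 846. The red cell median was -1.94 with all libraries and -1.06 without AN3. Mmp8, a collagenase of neutrophils, was at 313, 10.5 and 41.5 against 7.71, 2.37 and 0.988, and S100a8, a calcium-binding protein of neutrophils, was at 1188, 14.3 and 175 against 33.4, 10.7 and 14.8. AN1 and AN3 were thus the libraries with neutrophil transcripts, and AN2 was close to the performing ones. All 7 neutrophil genes were lower in performing rats, with a median of -1.15 that was -0.94 without AN1.

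Whether the performance difference was particular to the aged rats was tested as the difference between ages, in the same fit. No gene passed in limma (0.0%), with a smallest adjusted p of 1.0 and 139 genes (1.03%) at an unadjusted p under 0.05, of which 90 were higher and 49 lower. In the 3-month rats alone no gene passed and 163 had an unadjusted p under 0.05. Among named genes with the smallest p for the difference, Dusp1 was at 886, 558 and 1323 in young nonperforming and 1327, 1167 and 1419 in young performing libraries, a difference between ages of -1.5 (unadjusted p 0.012, adjusted p 1.0). Adamts1, a secreted protease, was lower in aged performing rats at 440, 217 and 247 against 191, 135 and 101, and in young rats was at 129, 121 and 101 against 109, 144 and 204. Acta2 was higher in aged performing rats as given above, and in young rats was at 434, 433 and 347 against 180, 647 and 399. The young values of these 3 genes overlapped between groups, while those of Zfp36 and RGD1563941, also among the smallest p, did not. None of the differences between ages passed.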

How the data were processed

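The authors deposited 1 table of normalized counts for 12 libraries, in which the signal of a gene is its read count divided by the size factor of the library. Per the submitters' processing notes, build Rnor_6.0 and the tools HTSeq, TopHat2, Bowtie2, Trimmomatic and DESeq2 were used, and their versions are not given in the sources used here. Undoing the size factors gave whole reads for 100% of values within a tolerance of 0.01. All 12 libraries entered 1 limma fit (limma 3.58.1, R 4.3.3, trend on) of 4 group means on log2(value + 1), with residual degrees of freedom of 8. P-values were two-sided and adjusted by Benjamini and Hochberg over 13496 genes, and 0.05 was the threshold. On the recovered reads edgeR 4.0.16 called 0 genes and DESeq2 1.42.0 called 89. The fits were tested on simulated data.

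The bulb score is the mean log2 value of the 14 tested bulb markers. Named genes were the 12 of smallest p in each direction with a mean of at least 50, the 5 of smallest p in each direction with the bulb covariate and for the difference between ages, up to 4 per list, and a fixed set; not every named gene is described, and a few are not reported here. The comparison, the 32 gene lists and this rule were chosen with earlier results of these data known, and 2 lists were added after the values were seen. Of 747 genes listed, 679 matched the table and 636 were tested. Genes that share reads with near-identical copies, such as globin and MHC genes, are uncertain. Samples were grouped by the labels. Alternatives were other pseudocounts, filters, scalings, tests and weights, a bulb covariate, a fit of the 6 aged libraries and leaving out libraries.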

Additional observations from a re-analysis of the deposited data

Results flagged for a closer look

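In 2 of the named genes every performing library lay on one side of the nonperforming libraries at 22 months and on the other side at 3 months. Both genes were named for a small p in the difference between ages, so they were picked for such a reversal. The share of all tested genes with the same pattern is not given. At 22 months alone, 10.7% of all genes were higher and 10.8% lower without overlap. Zfp36 was at 338, 287 and 261 in aged nonperforming and 243, 228 and 191 in aged performing libraries, and at 147, 145 and 121 in young nonperforming and 167, 188 and 161 in young performing ones. The difference between ages was -0.74 on the log2 scale (limma, unadjusted p 0.011, adjusted p 1.0). RGD1563941, an uncharacterised locus, was at 45.0, 55.4 and 43.5 against 66.8, 62.9 and 83.0 in aged rats and at 69.3, 65.3 and 128 against 42.4, 59.1 and 57.9 in young rats. Its difference between ages was 1.21 (limma, unadjusted p 0.0121, adjusted p 1.0). Neither difference passed the adjusted threshold.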

How the results depend on the processing

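The count of genes passing between performing and nonperforming aged rats was 0 in limma, 89 with DESeq2 and 1347 with library quality weights, whose iteration stopped before it converged; leaving out 1 library in turn gave 0 to 2, the 2 without YP2, a setting chosen after seeing the data. It was 0 under each other setting run, namely other pseudocounts, filters and scalings, edgeR, robust shrinkage, the bulb covariate, only the 6 aged libraries, a threshold of 0.1 and without AP1 and AP3 or these and AN3. The cause was not tested. The count for the difference between ages was 0 under every setting run. The mitochondrial share was 3.7 to 7.16 points higher in performing rats with 1 aged library left out. Among 3643 values of named genes under alternatives, 44 in 24 genes changed sign, and 97 passed with weights, 36 with DESeq2 and 0 otherwise. Among 680 list medians 47 in 14 lists changed sign. No paired analysis was possible because nothing in the labels pairs a performing with a nonperforming rat, and the numbers 1 to 3 are only names. TMM scaling moved the median of all genes from -0.00 to 0.02.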
